A study of Mus musculus with 20 samples.

Results

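Myeloid cells from the spleens of mice bearing the melanoma B16F10 were compared with those from the spleens of mice bearing the melanoma YUMM3.3. The comparison consists of 3883 gene sets, which are all sets listed in the 2 gene set enrichment reports that set these groups against each other, 1 report for each direction. Each group was 2 libraries, so 4 of the 20 libraries of the study enter it, and 14 of the 20 are myeloid. All animals were adult C57BL/6 mice, and the cells were obtained from spleen by depletion of CD3e+ cells. B16F10 is a transplantable melanoma line of C57BL/6 origin. YUMM3.3 was derived from a melanoma that arose in mice engineered to carry melanoma driver lesions. Further comparisons are used only to place the sets: the same tumours in bone marrow (3 B16F10-bearing and 2 YUMM3.3-bearing libraries), and each tumour against healthy spleen (2 libraries). No added allele, drug or other treatment is labelled, and the route of tumour growth, the tumour size, the time of collection and the number of animals in a library are not given in the sources used here.

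CD3e is a chain of the T cell receptor complex, so its depletion removes T cells. Other cells stay together with the myeloid cells, among them B cells, erythroid cells, platelets and stroma. The labelled cell type could not be checked gene by gene, because the values analysed here are per gene set. In a bulk library, fewer cells of a type and less RNA per cell cannot be told apart. The mouse spleen filters blood, holds B cell follicles and recycles iron from old red cells. It also makes blood cells outside the marrow when demand rises, which in tumour-bearing mice can include granulocytes, monocytes, red cell precursors and megakaryocytes.

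Gene set enrichment walks down a list of genes ranked from the most B16F10-high to the most YUMM3.3-high and asks whether the genes of a set gather at 1 end. The normalised enrichment score (NES) gives how strongly they gather, scaled so that large and small sets can be compared. Here a positive NES means higher with B16F10 and a negative NES higher with YUMM3.3. The leading edge is the part of the set met before the running score peaks: its tags are the percent of the set's genes met by then, and its list value is the percent of all ranked genes passed. The ranks and list percentages of the authors' deposited table fit a ranked list of 14549 genes. A set was counted as higher in a group at a deposited false discovery rate q (FDR q) below 0.05.

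Of the 3883 sets, 374 were higher with B16F10 and 57 were higher with YUMM3.3, which is 9.63% and 1.47% of all sets. These shares are the background for the spleen counts below at this threshold. The listing itself leaned the same way, with 2826 sets (72.8%) on the B16F10 side and 1057 (27.2%) on the YUMM3.3 side, and the median NES of all sets was 1.04. Sets held between 15 and 483 genes, with a median of 44. The NES of the counted sets began at a size of 1.67 on the B16F10 side and 1.79 on the YUMM3.3 side in the authors' deposited table. NES has no values close to 0, so the median of a list with sets on both sides can jump between signs.

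These q values come from the authors' reports, and they should not be read as tests over animals. With 2 libraries a group there are 6 ways to relabel them, so relabelling could not give a p below 0.167, yet the smallest nonzero nominal p in the authors' deposited table was 0.0011. No SD, fold change or replicate test could be computed from sets, and no member gene is named, because the reports list sets only. Gene sets also share genes. Among the 374 sets, 165 peaked at a gene where at least 1 other of them peaked (64 such genes), and among the 57 this was so for 12 (6 genes).

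**Figure D1:**
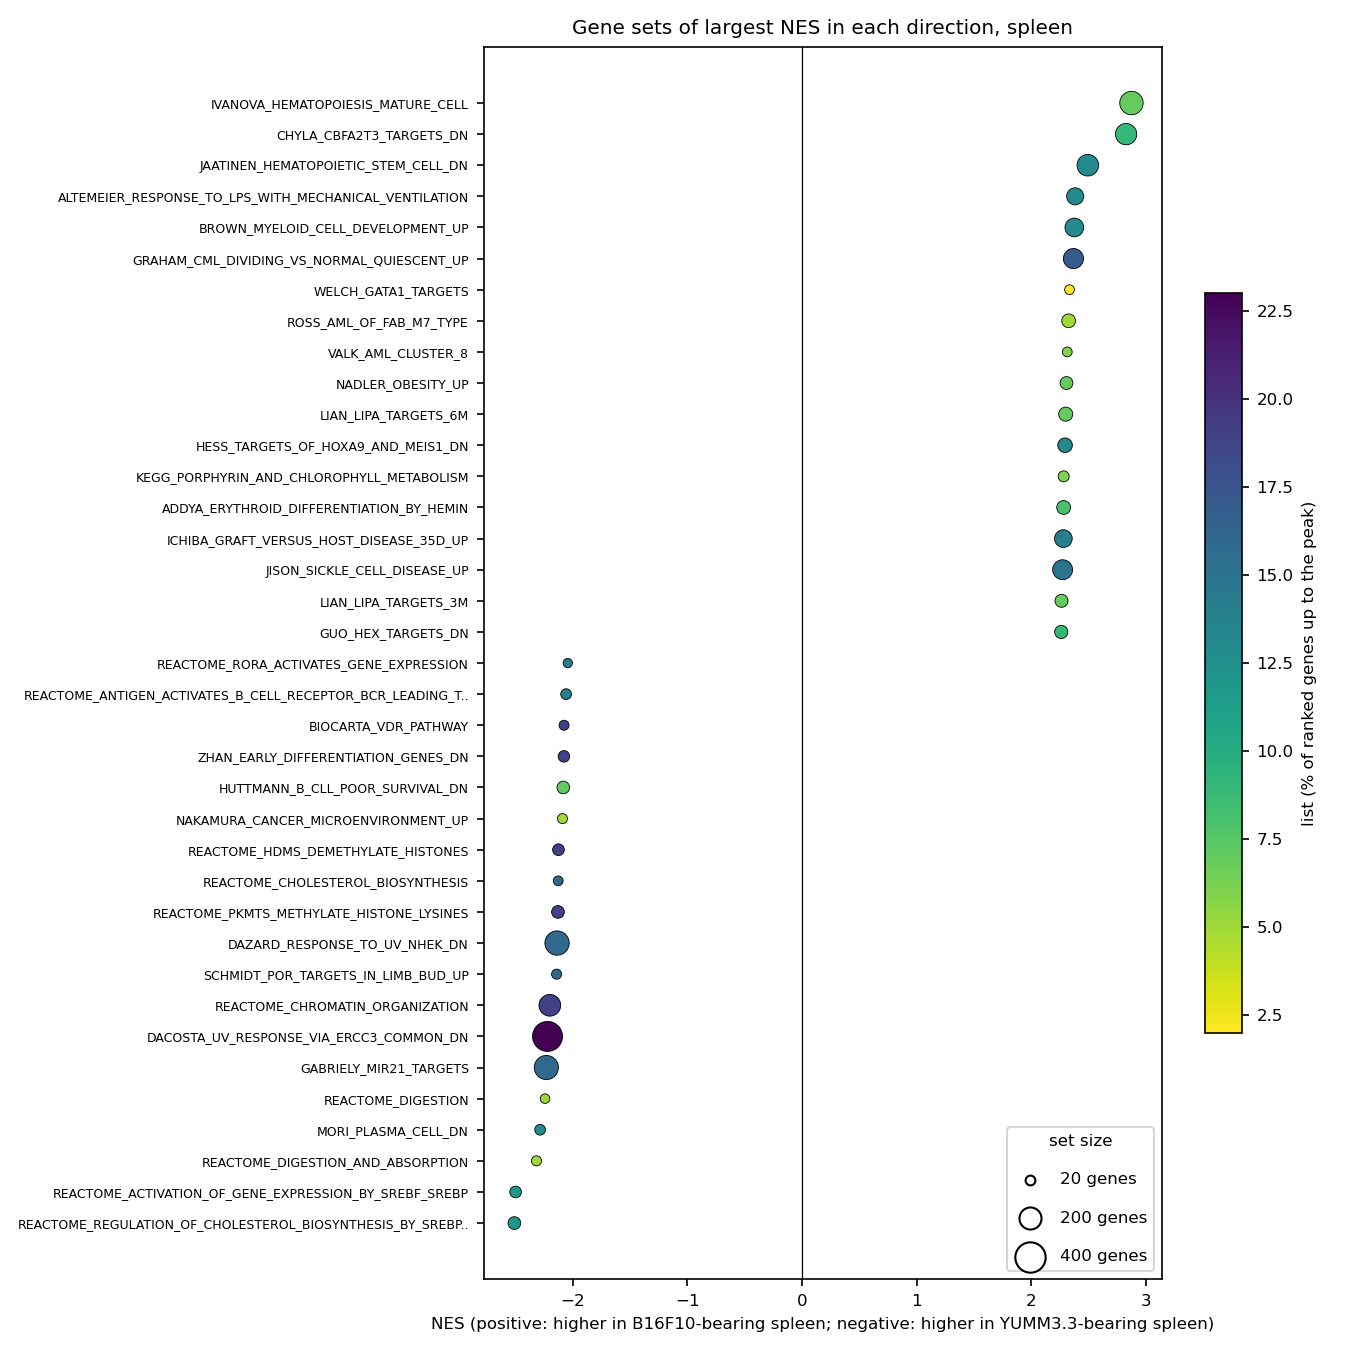
NES (horizontal axis, no unit) of the sets of largest NES, 18 on the B16F10 side and 19 on the YUMM3.3 side; point area grows with the number of genes, and colour gives the list percent of the leading edge. B16F10-side values run from 2.26 to 2.88 and YUMM3.3-side values from -2.04 to -2.51, and the brightest yellow point, with the smallest list percent, is the GATA1 target set. Long labels are shortened.

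Several gene sets of mature blood cells and of granulocyte and macrophage differentiation were higher in the B16F10-bearing spleen. Of 38 sets on neutrophils, monocytes, macrophages, dendritic cells and myeloid development, 11 (28.9%) were higher with B16F10 and none with YUMM3.3, and the list's median NES was 1.29 against 1.04 for all sets. Outside this list, IVANOVA_HEMATOPOIESIS_MATURE_CELL, genes of mature blood cells, had the largest NES of all in the authors' deposited table: 2.88 with 229 genes, of which 48% (about 110 genes) lay in the first 7% of the ranking. Within the list, BROWN_MYELOID_CELL_DEVELOPMENT_UP, genes that increase as a myeloid precursor line matures, reached an NES of 2.38 per the authors' deposited table, with 51% of 137 genes in the first 13%. The 11 counted sets cover granule proteins, myeloid development, macrophages and dendritic cells.

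Neutrophil granules store proteases and antimicrobial proteins that are made in stages as the cell matures. The authors' deposited table gives REACTOME_NEUTROPHIL_DEGRANULATION, with 395 genes, an NES of 2.24 and a leading edge of 39% of its genes in 17% of the ranking. The far narrower LIAN_NEUTROPHIL_GRANULE_CONSTITUENTS, 23 genes, had an NES of 2.13 per the authors' deposited table with 70% of its genes in the first 13%. The narrow granule set thus had a larger share of its genes in the leading edge, and the broad set a similar NES; whether they differ was not tested. C/EBP factors drive granulocyte differentiation, and KAMIKUBO_MYELOID_CEBPA_NETWORK had an NES of 2.19 (65% of 26 genes in the first 8%) per the authors' deposited table. Chosen after its value was seen, GERY_CEBP_TARGETS had an NES of 2.17 with 111 genes per the authors' deposited table.

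Macrophage and dendritic cell sets were higher with B16F10 in both directions of the underlying contrast. COATES_MACROPHAGE_M1_VS_M2_UP and its opposite COATES_MACROPHAGE_M1_VS_M2_DN, genes higher and lower in M1 than in M2 macrophages, had NES values of 1.73 and 1.75 in the authors' deposited table (q = 0.0333 and q = 0.0291). LENAOUR_DENDRITIC_CELL_MATURATION_UP and LENAOUR_DENDRITIC_CELL_MATURATION_DN, genes that go up and down as dendritic cells mature, likewise both lay on the B16F10 side of the authors' deposited table, at 1.73 and 2.00. Both members of each pair were therefore higher with B16F10, and the pairs do not tell M1 from M2 or mature from immature dendritic cells. The lowest set of the list, SHAFFER_IRF4_TARGETS_IN_ACTIVATED_DENDRITIC_CELL, had an NES of -1.44 (q = 0.249) per the authors' deposited table.

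Haematopoietic stem and progenitor sets gave 21 of 87 (24.1%) higher with B16F10 and 2 (2.3%) with YUMM3.3, with a median NES of 1.31. IVANOVA_HEMATOPOIESIS_MATURE_CELL, described above, belongs to this list. Several of the sets counted toward B16F10 hold genes that are low in stem cells, not genes that mark them. JAATINEN_HEMATOPOIETIC_STEM_CELL_DN, genes lower in human stem cells than in other blood cells, had an NES of 2.49 per the authors' deposited table, with about 86 of 190 genes in the leading edge. HESS_TARGETS_OF_HOXA9_AND_MEIS1_DN, genes lowered by a pair of factors that hold progenitors immature, had an NES of 2.30 with 62% of 74 genes in the first 13% of the ranking per the authors' deposited table. Sets of genes that rise with these factors were counted on the same side: per the authors' deposited table, WANG_IMMORTALIZED_BY_HOXA9_AND_MEIS1_UP had 2.08 (q = 0.00051) with 71% of 24 genes in the leading edge, and TAKEDA_TARGETS_OF_NUP98_HOXA9_FUSION_8D_UP had 2.16 (q = 9.1e-05). The HOXA9 sets thus do not tell immature from mature cells. Leaving out names that end in DN or DOWN leaves 10 of the 21 stem and progenitor sets. These are 17.2% of the 58 left in the list, beside 9.22% of all sets left.

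Sets for stages of bone marrow differentiation did not all point the same way. IVANOVA_HEMATOPOIESIS_LATE_PROGENITOR, 402 genes, had an NES of 2.17 per the authors' deposited table. From the same source, IVANOVA_HEMATOPOIESIS_STEM_CELL_SHORT_TERM, 19 genes of short-term stem cells, lay on the YUMM3.3 side of the authors' deposited table at -1.82 (q = 0.0398). The pair HOEBEKE_LYMPHOID_STEM_CELL_DN and HOEBEKE_LYMPHOID_STEM_CELL_UP, genes lower and higher in lymphoid stem cells, split by direction in the authors' deposited table: 2.15 and -1.84. The stem cell sets that were higher with YUMM3.3 were these 2, short-term and lymphoid.

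Acute leukaemia signatures hold, beside tumour genes, many genes of the lineage at which the blasts are arrested. The list fixed for them gave 22 of 132 (16.7%) higher with B16F10 and 2 (1.52%) with YUMM3.3. Without names ending in DN or DOWN, 14 of the 22 are left, which is 14.9% of 94, beside 9.22% of all sets left. CHYLA_CBFA2T3_TARGETS_DN, genes lower in marrow progenitors that lack the corepressor Cbfa2t3, had the next largest NES of all in the authors' deposited table: 2.83, with 55% of 185 genes in the first 9% of the ranking. ROSS_AML_OF_FAB_M7_TYPE, the megakaryoblastic type of acute myeloid leukaemia, had an NES of 2.33, with 33% of 63 genes in the first 5% of the ranking per the authors' deposited table. VALK_AML_CLUSTER_8 had an NES of 2.32 per the authors' deposited table, with 65% of 20 genes in the first 6%. The name pattern of this list also took MARKEY_RB1_ACUTE_LOF_DN and MCDOWELL_ACUTE_LUNG_INJURY_UP, which are not leukaemia sets and are among the counted sets. CHYLA_CBFA2T3_TARGETS_DN and the Reactome set given next are likewise not leukaemia signatures. On the YUMM3.3 side were VALK_AML_CLUSTER_10 at -1.94 and a Reactome set of RUNX1 cofactors, REACTOME_RUNX1_INTERACTS_WITH_CO_FACTORS_WHOSE_PRECISE_EFFECT_ON_RUNX1_TARGETS_IS_NOT_KNOWN, at -2.01 in the authors' deposited table. Outside the list, GRAHAM_CML_DIVIDING_VS_NORMAL_QUIESCENT_UP, from chronic myeloid leukaemia, had an NES of 2.37 per the authors' deposited table.

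Red cell and haem sets were among the 20 largest on the B16F10 side, with leading edges close to that end of the ranking. GATA1 is the master transcription factor of erythroid and megakaryocytic cells, and WELCH_GATA1_TARGETS had an NES of 2.34 per the authors' deposited table, with 65% of its 20 genes (about 13) in the first 2% of the ranking. KEGG_PORPHYRIN_AND_CHLOROPHYLL_METABOLISM, which contains the haem synthesis enzymes, had an NES of 2.28, with 34% of 32 genes in the first 6% of the ranking per the authors' deposited table. ADDYA_ERYTHROID_DIFFERENTIATION_BY_HEMIN, genes induced when haemin drives a leukaemia line toward red cells, had the same NES to 2 decimals, 2.28, in the authors' deposited table. All 3 sets were listed at a q of 0.

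Over the erythroid list, 5 of 30 sets (16.7%) were higher with B16F10 and 1 (3.33%) with YUMM3.3, and the median NES was 1.09. The 1 set counted on the YUMM3.3 side, NAKAMURA_CANCER_MICROENVIRONMENT_UP (-2.09 in the authors' deposited table), is not erythroid and was taken only because its name contains the letters of iron. A second erythroid list of 20 sets, added after values were seen, gave 6 (30%) with B16F10 and none with YUMM3.3. This second list has more counted sets than the first, so it also took in sets from outside it. Its median NES was 1.31. REACTOME_IRON_UPTAKE_AND_TRANSPORT was more diffuse: an NES of 1.87 with 43% of 54 genes in the first 20% of the ranking per the authors' deposited table. RIZ_ERYTHROID_DIFFERENTIATION_6HR, also listed on the YUMM3.3 side, had -1.62 (q = 0.128) in the authors' deposited table. Since CD3e depletion does not remove red cell precursors, the part of erythroid cells in the mature blood cell sets above was not tested.

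The platelet, megakaryocyte and clotting list had the highest share of all lists fixed: 8 of 17 sets (47.1%) were higher with B16F10, none with YUMM3.3, and all 17 were listed on the B16F10 side, with a median NES of 1.67. Platelets are shed by megakaryocytes, which mouse spleen contains. The set of platelet-specific genes led the list: it had an NES of 2.23 per the authors' deposited table, with 49% of 61 genes in the first 9% of the ranking. TENEDINI_MEGAKARYOCYTE_MARKERS had 2.00 in the authors' deposited table with 47% of 58 genes in 14%. Clotting cascade sets were carried by few genes near the very top: REACTOME_FORMATION_OF_FIBRIN_CLOT_CLOTTING_CASCADE had an NES of 1.95 per the authors' deposited table, with about 11 of 38 genes in the first 4%. The downstream branch REACTOME_COMMON_PATHWAY_OF_FIBRIN_CLOT_FORMATION (1.93, about 7 of 21 genes) peaked at the same rank, 569, in the authors' deposited table, so the same gene ends both leading edges. The lowest of the list was REACTOME_FACTORS_INVOLVED_IN_MEGAKARYOCYTE_DEVELOPMENT_AND_PLATELET_PRODUCTION at 0.88 (q = 0.796) in the authors' deposited table.

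**Figure D2:**
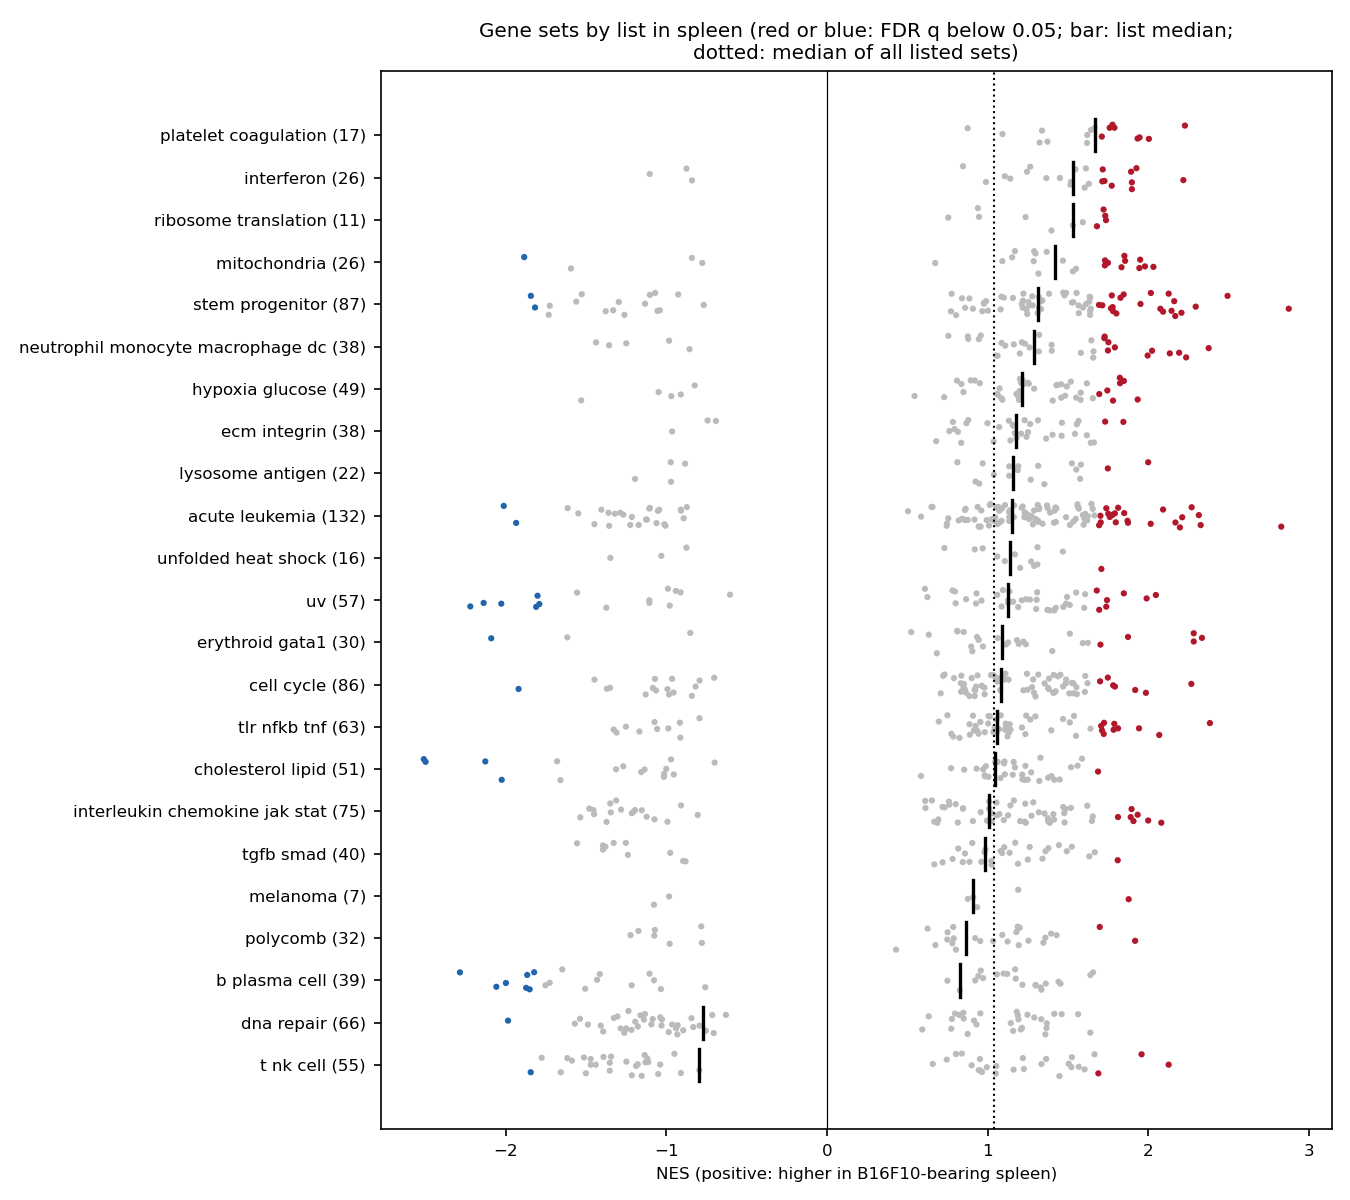
NES of every set (points) in 23 of the lists fixed by name pattern, ordered by list median (black bar), with the number of sets in brackets. Red points are higher with B16F10 and blue points higher with YUMM3.3 at an FDR q below 0.05; all points of the platelet and coagulation list lie to the right of 0, and the coloured points of the B and plasma cell list are all blue. The dotted line is the median of all sets, 1.04.

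Interferon response sets that passed were all higher with B16F10. Interferons are antiviral cytokines, and the genes they induce are shared by nearly all cells. Of 26 interferon sets, 9 (34.6%) were higher with B16F10 and none with YUMM3.3, with a median NES of 1.53. HECKER_IFNB1_TARGETS, genes induced by interferon beta in blood, led with an NES of 2.22 per the authors' deposited table and 44% of 71 genes in the first 9%. BOSCO_INTERFERON_INDUCED_ANTIVIRAL_MODULE (1.90), ZHANG_INTERFERON_RESPONSE (1.72) and MOSERLE_IFNA_RESPONSE (1.71), peaked at 1 rank, 1281, in the authors' deposited table. These sets share the gene at which they peak, so they are not separate evidence. SANA_RESPONSE_TO_IFNG_UP and SANA_RESPONSE_TO_IFNG_DN, genes raised and lowered by interferon gamma in endothelial cells, were both on the B16F10 side of the authors' deposited table at 1.77 and 1.90. PID_IFNG_PATHWAY, the receptor and its signalling proteins, had -1.10 (q = 0.55) in the authors' deposited table. The counted set of largest NES, HECKER_IFNB1_TARGETS, holds interferon-induced genes, while SANA_RESPONSE_TO_IFNG_DN holds genes lowered by interferon gamma.

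Toll-like receptor, NF-κB and TNF sets gave 10 of 63 (15.9%) higher with B16F10 and none with YUMM3.3, while the list's median NES of 1.06 was close to that of all sets. Leaving out names that end in DN or DOWN, which hold genes lowered in the source study, leaves 6 of the 10. These are 11.5% of the 52 sets left in the list, beside 9.22% of all sets left. ALTEMEIER_RESPONSE_TO_LPS_WITH_MECHANICAL_VENTILATION, lung genes induced by bacterial endotoxin and ventilation, had an NES of 2.38 per the authors' deposited table with 51% of 110 genes in the leading edge. At the other end of this list, TIAN_TNF_SIGNALING_VIA_NFKB had -1.33 (q = 0.322) in the authors' deposited table. Interleukin, chemokine and JAK-STAT sets stood at the background, with 7 of 75 (9.33%) higher with B16F10, none with YUMM3.3 and a median NES of 1.01. RUTELLA_RESPONSE_TO_HGF_VS_CSF2RB_AND_IL4_UP led that list at 2.08, and REACTOME_INTERLEUKIN_3_INTERLEUKIN_5_AND_GM_CSF_SIGNALING was lowest at -1.54 (q = 0.168) in the authors' deposited table.

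Sets for energy metabolism and protein synthesis were also counted toward B16F10, but with leading edges of another shape. Of 26 mitochondrial sets 10 (38.5%) were higher with B16F10 and 1 (3.85%) with YUMM3.3, with a median NES of 1.42. KEGG_OXIDATIVE_PHOSPHORYLATION, the respiratory chain and ATP synthase, had an NES of 1.83 (q = 0.0148) per the authors' deposited table, with 74% of 85 genes spread over the first 33% of the ranking. It peaked at the same rank, 4808, as MOOTHA_VOXPHOS. MOOTHA_MITOCHONDRIA and MOOTHA_HUMAN_MITODB_6_2002 likewise shared a peak rank, 3550, so such sets are not separate evidence. MOOTHA_PGC, targets of the coactivator that drives mitochondrial biogenesis, was highest in the list with 2.03 in the authors' deposited table. REACTOME_TRANSCRIPTIONAL_ACTIVATION_OF_MITOCHONDRIAL_BIOGENESIS, the regulators of that process, was the 1 set on the YUMM3.3 side, at -1.89 (q = 0.0236) in the authors' deposited table. Respiratory chain components and this set of regulators thus lay on opposite sides.

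Ribosome and translation sets gave 4 of 11 (36.4%) higher with B16F10 and none with YUMM3.3, with a median NES of 1.53. KEGG_RIBOSOME had an NES of 1.68 (q = 0.045) per the authors' deposited table, and its leading edge was the widest of the counted sets: 93% of 55 genes within 41% of the ranking. Such a peak means that nearly all ribosomal protein genes lie in the upper part of the ranking without gathering at its top. The 4 counted sets, led by REACTOME_TRANSLATION at 1.74 (q = 0.0316) in the authors' deposited table, had q values no lower than that, so at q below 0.01 the list has no counted set.

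Hypoxia and glucose metabolism sets gave 7 of 49 (14.3%) higher with B16F10 and none with YUMM3.3, led by KEGG_GLYCOLYSIS_GLUCONEOGENESIS at 1.93 (q = 0.00476) in the authors' deposited table. WINTER_HYPOXIA_DN, the lowest of this list, had -1.53 (q = 0.172) in the authors' deposited table. Lysosome and antigen presentation sets were at the background, 2 of 22 (9.09%) higher with B16F10 and none with YUMM3.3. Of these, KEGG_LYSOSOME had an NES of 2.00 with 48% of 117 genes in 19% of the ranking in the authors' deposited table. LIAN_LIPA_TARGETS_6M and LIAN_LIPA_TARGETS_3M, genes changed in mice without lysosomal acid lipase, had 2.30 and 2.27 in the authors' deposited table and peaked at 1 rank, 964. NADLER_OBESITY_UP, genes raised in fat of obese mice, had 2.31 with 42% of 52 genes in the first 7% of the ranking per the authors' deposited table.

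Adipogenesis sets were examined after these values were seen, and 15 of 43 were higher with B16F10 and 1 with YUMM3.3. WANG_CLASSIC_ADIPOGENIC_TARGETS_OF_PPARG, lipid storage and uptake genes under the nuclear receptor PPARγ, had an NES of 2.19 per the authors' deposited table, with 62% of 26 genes in the first 11%. BURTON_ADIPOGENESIS_12 was the 1 set on the other side, at -1.83 (q = 0.0384) in the authors' deposited table. Sets from other diseased tissues were among the 20 largest as well: ICHIBA_GRAFT_VERSUS_HOST_DISEASE_35D_UP from liver had 2.28 in the authors' deposited table. JISON_SICKLE_CELL_DISEASE_UP, from blood of people with sickle cell disease, had 2.27 with about 71 of 158 genes in the leading edge per the authors' deposited table. GUO_HEX_TARGETS_DN, genes lower in embryoid bodies without the blood and endothelial factor Hex, had 2.26 in the authors' deposited table.

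**Figure D3:**
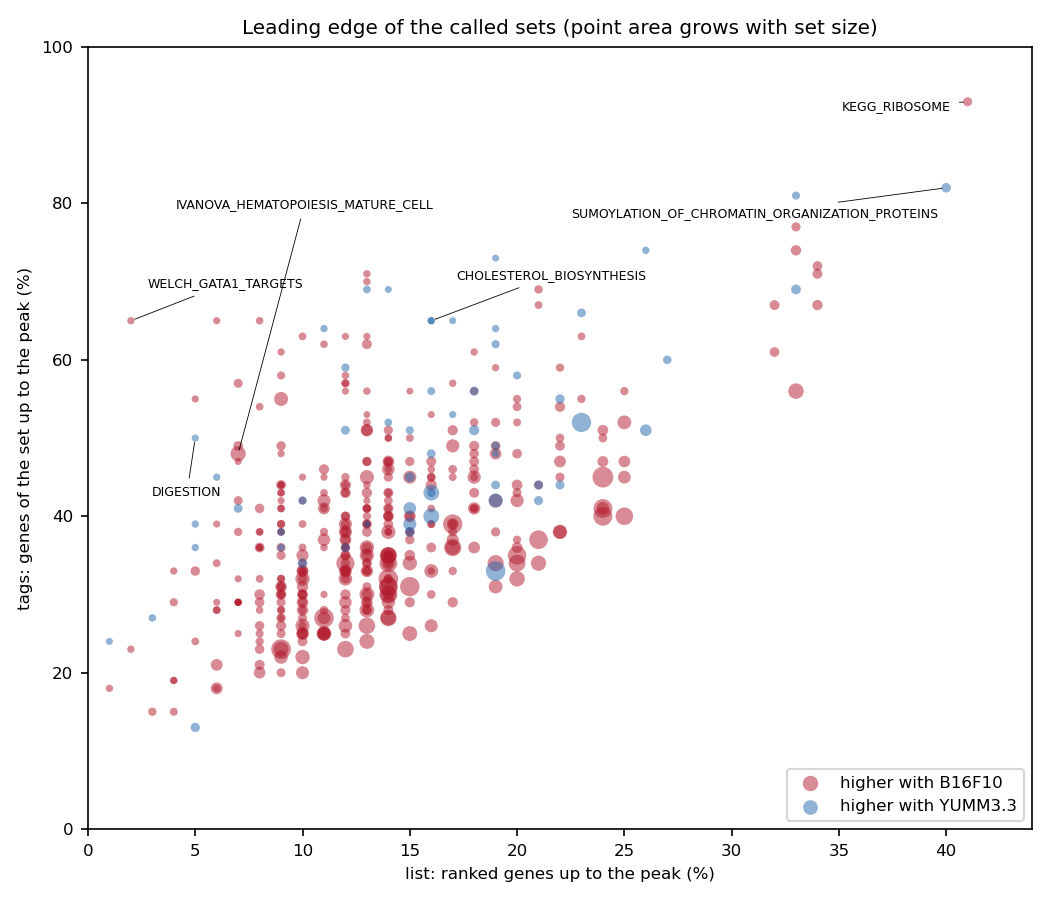
Leading edge of all counted sets: list percent (horizontal) against tags percent (vertical), with point area growing with set size, red for sets higher with B16F10 and blue for those higher with YUMM3.3. GATA1 targets peak at 2% of the ranking and the ribosome set at 41%, the near and far ends of the labelled sets.

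Across the counted sets, the leading edge covered a median of 38% of the genes of a B16F10-side set within 13% of the ranking, and 49% of the genes of a YUMM3.3-side set within 16%. Of the 374, 119 peaked within the first 10% of the ranking and 36 beyond 20%, and of the 57 the numbers were 12 and 12. By list, the median list value of the counted B16F10-side sets was 8% for erythroid, 9% for interferon, 12% for myeloid, 25% for mitochondrial and 34% for ribosome and translation sets. The counted erythroid and interferon sets thus peaked near the B16F10 end of the ranking, while those of the mitochondrial and ribosomal sets took in more of the ranking.

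On the YUMM3.3 side, sterol synthesis had the largest NES. SREBP factors are membrane-bound until cholesterol falls, when they move to the nucleus and switch on the enzymes that make cholesterol and the receptor that takes it up. Of 51 cholesterol and lipid sets, 4 (7.84%) were higher with YUMM3.3 and 1 (1.96%) with B16F10, while the list's median NES was 1.05. REACTOME_REGULATION_OF_CHOLESTEROL_BIOSYNTHESIS_BY_SREBP_SREBF had an NES of -2.51 per the authors' deposited table, with 51% of 51 genes (about 26) in the last 12% of the ranking. REACTOME_ACTIVATION_OF_GENE_EXPRESSION_BY_SREBF_SREBP had -2.50 in the authors' deposited table and peaked at the same rank, 1685. REACTOME_CHOLESTEROL_BIOSYNTHESIS, the enzymes alone, had -2.13 with 65% of 20 genes in 16%, and shared its peak rank with SCHMIDT_POR_TARGETS_IN_LIMB_BUD_UP (-2.14) in the authors' deposited table. HORTON_SREBF_TARGETS had -2.03 (q = 0.00545) in the authors' deposited table. The 4 sets are all on SREBP or sterol synthesis, and the 1 lipid set on the B16F10 side, GARGALOVIC_RESPONSE_TO_OXIDIZED_PHOSPHOLIPIDS_MAGENTA_UP, had 1.69 (q = 0.0431) in the authors' deposited table.

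Where B cell sets passed, they were higher with YUMM3.3. Of 39 B and plasma cell sets, 7 (17.9%) were higher with YUMM3.3 and none with B16F10. The list as a whole was split, with 21 sets listed on the B16F10 side and 18 on the YUMM3.3 side and a median NES of 0.83. MORI_PLASMA_CELL_DN, genes that B cells express and plasma cells lose, had an NES of -2.29 per the authors' deposited table, with 69% of 29 genes in 13% of the ranking. TARTE_PLASMA_CELL_VS_B_LYMPHOCYTE_DN, from another study of the same step, had -2.00 (q = 0.00774) in the authors' deposited table. The antigen receptor pathway appeared in 3 sets of the authors' deposited table: REACTOME_ANTIGEN_ACTIVATES_B_CELL_RECEPTOR_BCR_LEADING_TO_GENERATION_OF_SECOND_MESSENGERS at -2.06, PID_BCR_5PATHWAY at -1.87 and KEGG_B_CELL_RECEPTOR_SIGNALING_PATHWAY at -1.85. TARTE_PLASMA_CELL_VS_PLASMABLAST_UP, genes of mature plasma cells, was the highest of the list at 1.66 (q = 0.0535) in the authors' deposited table. MORI_MATURE_B_LYMPHOCYTE_UP, genes of mature B cells, had -1.82 (q = 0.0397) per the authors' deposited table. Thus 6 of the 7 counted sets hold genes of B cells or their antigen receptor, and the set of mature plasma cell genes did not pass. The other, KIM_GERMINAL_CENTER_T_HELPER_UP (-1.87 in the authors' deposited table), is a T helper set taken by the name pattern. B cells pass a CD3e depletion, and their part in the difference was not tested.

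T and NK cell sets were split, with 27 listed on the B16F10 side and 28 on the YUMM3.3 side; 3 of 55 (5.45%) were higher with B16F10 and 1 (1.82%) with YUMM3.3. The set on the YUMM3.3 side was ZHENG_FOXP3_TARGETS_IN_THYMUS_UP at -1.84 (q = 0.0345) in the authors' deposited table. Those on the B16F10 side of the authors' deposited table were HADDAD_T_LYMPHOCYTE_AND_NK_PROGENITOR_DN at 2.13, genes that lymphoid progenitors lack, LI_INDUCED_T_TO_NATURAL_KILLER_UP at 1.69, and NAKAJIMA_MAST_CELL at 1.96, a mast cell set taken by the name pattern.

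Sets on chromatin and on attachment of the SUMO protein were examined after the values were seen. 18 of 22 were listed on the YUMM3.3 side, 7 were higher with YUMM3.3 and none with B16F10, with a median NES of -1.57. REACTOME_CHROMATIN_ORGANIZATION, the umbrella set of histone writers and erasers, had an NES of -2.20 per the authors' deposited table with about 81 of 193 genes in the leading edge. Its branches for lysine methylation (REACTOME_PKMTS_METHYLATE_HISTONE_LYSINES) and for demethylation (REACTOME_HDMS_DEMETHYLATE_HISTONES) were both at -2.13 in the authors' deposited table. Genes common to both branches could not be separated, since the reports name no member gene. REACTOME_SUMOYLATION_OF_CHROMATIN_ORGANIZATION_PROTEINS had -1.84 with 82% of 65 genes spread over 40% of the ranking in the authors' deposited table.

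Nuclear receptor and clock sets were also chosen after their values were seen. Of 7 sets taken by clock name patterns, 4 were listed on the B16F10 side and 3 on the YUMM3.3 side, with a median NES of 0.75; 2 were higher with YUMM3.3 and none with B16F10. Of those on the B16F10 side of the authors' deposited table, UEDA_PERIFERAL_CLOCK had 1.43 (q = 0.165) and UEDA_CENTRAL_CLOCK had 0.94 (q = 0.715), and the other 2, PID_AURORA_A_PATHWAY and PID_AURORA_B_PATHWAY, are mitotic kinase sets taken by the letters of RORA. BIOCARTA_VDR_PATHWAY, for the vitamin D receptor and its chromatin remodellers, had -2.08 (q = 0.00307) in the authors' deposited table. REACTOME_RORA_ACTIVATES_GENE_EXPRESSION, for a nuclear receptor of the circadian clock, had -2.04 with 69% of 16 genes in 14% in the authors' deposited table. The clock activator set REACTOME_BMAL1:CLOCK_NPAS2_ACTIVATES_CIRCADIAN_GENE_EXPRESSION had -1.90 (q = 0.0194) in the authors' deposited table, while the umbrella REACTOME_CIRCADIAN_CLOCK did not pass at -1.59 (q = 0.139). The sources used here do not give the hour of spleen collection, and its part was not tested.

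Also among the 20 largest on this side were a microRNA target set, digestive enzymes, B lineage sets and ultraviolet response sets, the last described below. GABRIELY_MIR21_TARGETS, genes targeted by miR-21, had -2.23 with about 105 of 244 genes in the leading edge per the authors' deposited table. REACTOME_DIGESTION_AND_ABSORPTION and REACTOME_DIGESTION, which hold pancreatic and gut enzymes, had -2.32 and -2.24 in the authors' deposited table, with about 9 genes each within 5% of the ranking and 1 peak rank, 706. They belong to 8 pancreas and digestion sets, chosen after their values were seen, of which 4 were listed on the B16F10 side and 4 on the YUMM3.3 side, with a median NES of 0.02. The pancreas tissue set SU_PANCREAS had -1.52 (q = 0.177) in the authors' deposited table, and the part of RNA from the neighbouring pancreas was not tested. HUTTMANN_B_CLL_POOR_SURVIVAL_DN, from a B cell leukaemia, had -2.08, and ZHAN_EARLY_DIFFERENTIATION_GENES_DN, from the step from B cell to plasma cell, had -2.08 in the authors' deposited table. Both are B lineage sets outside the B cell list.

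Ultraviolet response sets were counted on both sides: 7 of 57 (12.3%) with B16F10 and 6 (10.5%) with YUMM3.3. Ultraviolet light damages DNA and stalls transcription, and several sets of this list hold genes that go down after it. DACOSTA_UV_RESPONSE_VIA_ERCC3_COMMON_DN had -2.22 with about 203 of 391 genes in the leading edge, and DAZARD_RESPONSE_TO_UV_NHEK_DN had -2.14 in the authors' deposited table. Their counterparts of genes going up, DACOSTA_UV_RESPONSE_VIA_ERCC3_UP and DAZARD_RESPONSE_TO_UV_NHEK_UP, had 1.74 (q = 0.0305) and 1.70 (q = 0.041) in the authors' deposited table. In both pairs, the set of genes that go down after ultraviolet light was higher with YUMM3.3 and the set of genes that go up was higher with B16F10. SESTO_RESPONSE_TO_UV_C7 had the largest NES of the list on the B16F10 side, 2.05, in the authors' deposited table.

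Cell cycle sets were counted at about the background share. Of 86 cell cycle sets, 7 (8.14%) were higher with B16F10 and 1 (1.16%) with YUMM3.3, with a median NES of 1.08. IGLESIAS_E2F_TARGETS_UP, genes that rise in cells lacking E2F factors, had 1.99, and REACTOME_VEGFR2_MEDIATED_CELL_PROLIFERATION on the YUMM3.3 side had -1.92 in the authors' deposited table. Among the 7, REACTOME_TRANSFERRIN_ENDOCYTOSIS_AND_RECYCLING, was taken by the letters of cyclin and is not a cell cycle set. DNA repair sets gave none of 66 with B16F10 and 1 (1.52%) with YUMM3.3, with a median NES of -0.77. That 1 set, REACTOME_SUMOYLATION_OF_DNA_DAMAGE_RESPONSE_AND_REPAIR_PROTEINS (-1.99 in the authors' deposited table), is also among the SUMO sets. At a nominal p below 0.05, 5 DNA repair sets (7.58%) lay on the B16F10 side and 5 (7.58%) on the YUMM3.3 side. The shares of all sets at that threshold were 22.9% and 6.13%.

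The 5 remaining lists had 1 or 2 sets each higher with B16F10 and none with YUMM3.3. Extracellular matrix and integrin sets gave 2 of 38 with B16F10 (5.26%, median NES 1.17), led by PID_INTEGRIN2_PATHWAY, the leukocyte beta-2 integrins, at 1.85 in the authors' deposited table. TGF-beta and SMAD sets gave 1 of 40 (2.5%, median 0.98), which was COULOUARN_TEMPORAL_TGFB1_SIGNATURE_DN at 1.81 in the authors' deposited table. Polycomb sets gave 2 of 32 (6.25%, median 0.86), and unfolded protein and heat shock sets gave 1 of 16 (6.25%, median 1.14). Melanoma sets gave 1 of 7 (14.3%, median 0.91). That set, WINNEPENNINCKX_MELANOMA_METASTASIS_DN at 1.88 in the authors' deposited table, holds genes lower in melanomas that spread.

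The same tumours were compared in bone marrow with other libraries, so no library is shared, although the labels leave it unsaid if one animal gave both tissues. In marrow 314 sets (8.09%) were higher with B16F10 and 326 (8.4%) with YUMM3.3. Across the 3883 sets, NES in spleen and in marrow had a Pearson correlation of -0.18 and a Spearman correlation of -0.19, as a description over sets that share genes. Of the 74 sets counted in both tissues, 16 had the same direction and 58 the opposite. Of the 374 B16F10-side sets of spleen, 12 (3.21%) were higher with B16F10 in marrow too and 44 (11.8%) were higher with YUMM3.3 there. Those are 3.82% of the 314 and 13.5% of the 326 marrow sets. Of the 57 YUMM3.3-side sets of spleen, 4 (7.02%) had the same direction in marrow and 14 (24.6%) the opposite, which are 1.23% of the 326 and 4.46% of the 314.

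**Figure D4:**
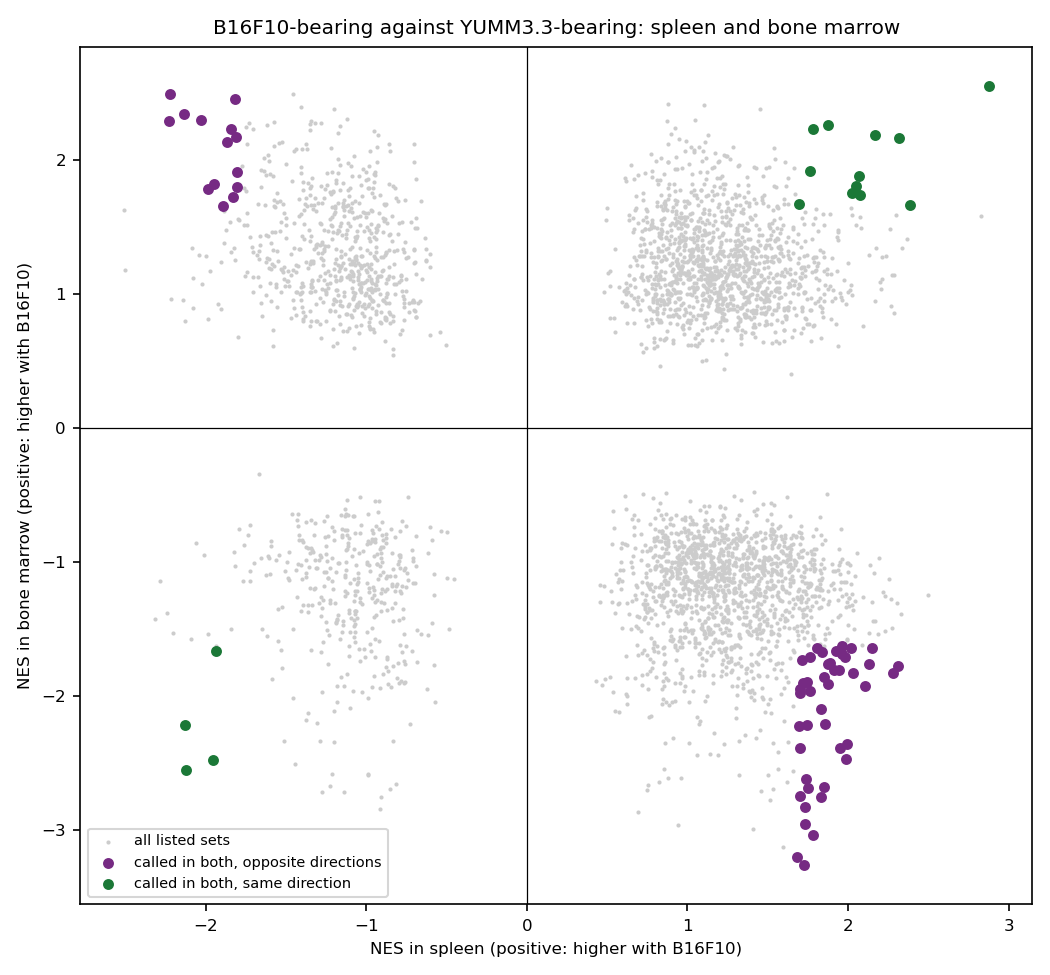
NES of each of the 3883 sets in spleen (horizontal) and in bone marrow (vertical), both positive for higher with B16F10; green points are the 16 sets counted in both tissues in the same direction and purple points the 58 in opposite directions. The purple points at the lower right reach a marrow NES of -3.26.

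The sets that kept their direction included a mature blood cell set, a late progenitor set and sets of histone methylation. Other maturation sets did not pass in marrow in the authors' deposited table. There BROWN_MYELOID_CELL_DEVELOPMENT_UP had 1.64 (q = 0.0518) and REACTOME_NEUTROPHIL_DEGRANULATION 1.28 (q = 0.252). LIAN_NEUTROPHIL_GRANULE_CONSTITUENTS had -1.03 (q = 0.601) and KAMIKUBO_MYELOID_CEBPA_NETWORK -0.97 (q = 0.69). IVANOVA_HEMATOPOIESIS_MATURE_CELL had 2.88 in spleen and 2.55 in marrow, and IVANOVA_HEMATOPOIESIS_LATE_PROGENITOR had 2.17 and 2.18 in the authors' deposited table. VALK_AML_CLUSTER_8 had 2.32 in spleen and 2.16 in marrow in the authors' deposited table. On the YUMM3.3 side the 4 sets were REACTOME_HDMS_DEMETHYLATE_HISTONES (-2.13 and -2.55), REACTOME_PKMTS_METHYLATE_HISTONE_LYSINES (-2.13 and -2.22), REACTOME_RMTS_METHYLATE_HISTONE_ARGININES (-1.96 and -2.48) and KLEIN_PRIMARY_EFFUSION_LYMPHOMA_DN (-1.93 and -1.67) in the authors' deposited table. These 3 histone methylation sets were therefore on the YUMM3.3 side in both tissues. The wider list of 22 chromatin and SUMO sets was split in marrow, with 5 higher with B16F10 and 7 with YUMM3.3. Of 11 SUMO sets, also chosen after values were seen, 5 were higher with B16F10 in marrow and none with YUMM3.3. Their median marrow NES was 1.24.

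The ribosome and respiratory chain sets lay on opposite sides in the 2 tissues. KEGG_RIBOSOME had 1.68 in spleen and -3.20 in marrow in the authors' deposited table, so a set just past the threshold in spleen had a large NES of the other sign in marrow. KEGG_OXIDATIVE_PHOSPHORYLATION had 1.83 and -2.76 in the authors' deposited table. Over the mitochondrial list, 10 of 26 sets were B16F10-high in spleen and 10 were YUMM3.3-high in marrow. For ribosome and translation the numbers were 4 and 9 of 11. A set of genes lowered by ultraviolet light was also opposite: DACOSTA_UV_RESPONSE_VIA_ERCC3_COMMON_DN had -2.22 in spleen and 2.49 in marrow in the authors' deposited table. GABRIELY_MIR21_TARGETS had -2.23 and 2.28 in the authors' deposited table. GNATENKO_PLATELET_SIGNATURE had 1.76 and -1.96 in the authors' deposited table. Whether the tissues differ for a given set was not tested, since the values give no error for NES.

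For the interferon, myeloid, erythroid, sterol and B cell sets the marrow values were as follows. The median marrow NES of the interferon list was -1.02, with 1 of 26 sets higher with B16F10 and 2 with YUMM3.3. Myeloid sets gave 4 and 1 of 38 there, and erythroid sets 3 and 2 of 30. WELCH_GATA1_TARGETS had a marrow NES of 1.34 (q = 0.205) and REACTOME_REGULATION_OF_CHOLESTEROL_BIOSYNTHESIS_BY_SREBP_SREBF one of 1.62 (q = 0.0587) in the authors' deposited table. Both single sets missed the threshold in marrow. B cell sets gave 3 with B16F10 and 4 with YUMM3.3 of 39 in marrow.

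Each tumour was also compared with healthy spleen. Both of those comparisons use the same healthy libraries and the tumour libraries used above, so their values are set side by side and are no separate support. Here a positive NES means higher with the tumour than in healthy spleen. IVANOVA_HEMATOPOIESIS_MATURE_CELL in the authors' deposited table had 2.75 with B16F10 (q listed at 0) and -1.51 with YUMM3.3 (q = 0.107). WELCH_GATA1_TARGETS had 2.31 with B16F10 (q listed at 0) and -1.16 with YUMM3.3 (q = 0.362) in the authors' deposited table. JAATINEN_HEMATOPOIETIC_STEM_CELL_DN passed in opposite directions, 2.11 (q = 5.76e-05) with B16F10 and -2.53 (q listed at 0) with YUMM3.3, in the authors' deposited table. GRAHAM_CML_DIVIDING_VS_NORMAL_QUIESCENT_UP was above healthy with both tumours, at 2.86 and 3.02 in the authors' deposited table.

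**Figure D5:**
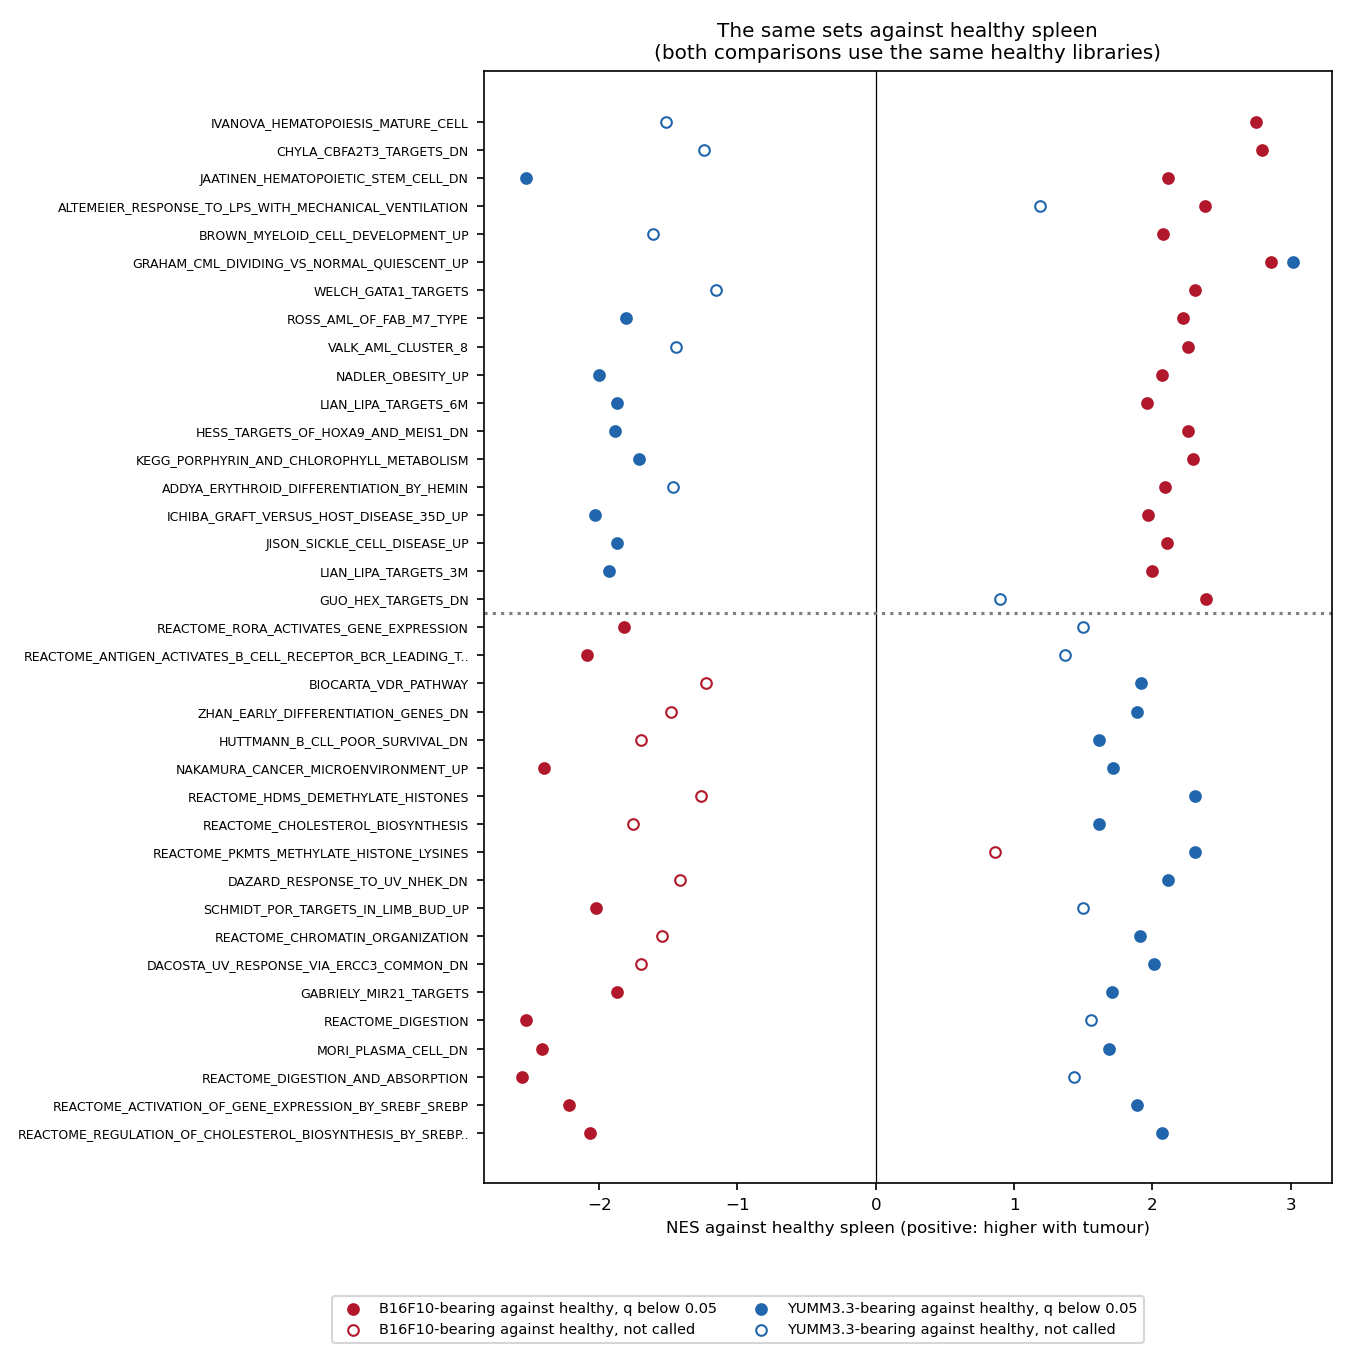
The sets of largest NES (18 of the B16F10 side above the dotted line and 19 of the YUMM3.3 side below it) against healthy spleen, red for B16F10-bearing and blue for YUMM3.3-bearing spleen, filled where the FDR q was below 0.05. In the upper part the red points reach from 1.96 to 2.86 and the blue points from -2.53 to 3.02.

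Some sets passed against healthy spleen in the YUMM3.3-bearing mice and not in the B16F10-bearing mice, and whether the 2 tumours' departures differ was not tested beyond the direct comparison above. The set of platelet-specific genes had 1.50 with B16F10 (q = 0.0998) and -2.51 with YUMM3.3 (q listed at 0) in the authors' deposited table. GNATENKO_PLATELET_SIGNATURE had 0.88 (q = 0.774) and -2.07 (q = 0.00428) in the same order in the authors' deposited table. KEGG_LYSOSOME had 1.38 (q = 0.19) and -2.06 (q = 0.00522) in the authors' deposited table. These sets were lower than healthy with YUMM3.3 and did not pass with B16F10.

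On the YUMM3.3 side, a B cell receptor set was lower than healthy with B16F10: KEGG_B_CELL_RECEPTOR_SIGNALING_PATHWAY had -2.25 (q = 0.000128) and, with YUMM3.3, 0.72 (q = 0.962) in the authors' deposited table. The 39 B and plasma cell sets did not move as this set did. Their median NES against healthy was 0.998 with B16F10 and 1.05 with YUMM3.3, beside 1.09 and -0.69 for all sets. REACTOME_DIGESTION_AND_ABSORPTION had -2.56 (q listed at 0) with B16F10 and 1.43 (q = 0.113) with YUMM3.3 in the authors' deposited table. The histone demethylation set was higher than healthy with YUMM3.3, where REACTOME_HDMS_DEMETHYLATE_HISTONES had 2.31 (q = 5.04e-06) against -1.27 (q = 0.371) with B16F10 in the authors' deposited table. Sterol synthesis passed in opposite directions: REACTOME_REGULATION_OF_CHOLESTEROL_BIOSYNTHESIS_BY_SREBP_SREBF had -2.06 (q = 0.00471) with B16F10 and 2.07 (q = 0.000206) with YUMM3.3 in the authors' deposited table.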

How the data were processed

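Per the submitters' processing notes, the tools were STAR 2.7.1a, FastQC 0.11.8, DESeq2 1.22.2 and featureCounts 1.6.0, and the build was mm10. What each did, and how labels or genes were permuted for the enrichment, is stated in none of the sources used here. Per the file headers, each deposited report lists gene sets with their size, an enrichment score and its normalised score, a nominal p-value, an FDR q-value, a family-wise p-value, the rank of the peak and a leading edge, for which the authors wrote tags and list as percent values. Of 14 deposited files, 8 were used, a pair for each of 4 comparisons. The group named first in a report was taken as the one in which its sets are higher, and scores were signed so that positive means higher with B16F10 (or, against healthy, with tumour). Library depth is unknown here, and no per-library values were analysed.

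With Python 3.11.15 and pandas 2.3.3, 25 lists were fixed as patterns in set names; the sets and lists were chosen with earlier results of these data known, and 8 lists were added after values were seen. Results of 2 lists, and 3 of the 40 sets given by the rule below, are not reported here. A list is described by its counts at q below 0.05 and its median NES, with no test. Sets named are the 20 with the largest NES size on each side past the threshold and the extreme set of each list on each side; others are named where a count of 5 or fewer is spelled out, for pairs of opposite direction, shared ranks or list examples, and were chosen after their values were seen. Alternatives were other thresholds, a size range, leaving out names ending in DN or DOWN, and restricted sets for the comparison with marrow. Reading of the reports was tested on simulated data.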

Additional observations from a re-analysis of the deposited data

How the results depend on the processing

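The 374 sets higher with B16F10 became 1103 at an FDR q below 0.25, 144 at a q below 0.01, 55 at a family-wise p below 0.05 and 888 at a nominal p below 0.05. The 57 sets higher with YUMM3.3 became 198, 28, 15 and 238 in the same order. Restricting sets to 25 to 200 genes gave 284 and 38, and leaving out names ending in DN or DOWN gave 284 and 45, both within 1.5 times. B16F10 had more sets at each of these settings. The correlation of spleen and marrow NES was -0.25 over sets counted in either tissue and -0.17 over sets of 25 to 200 genes, against -0.18 over all. The share of a list higher with B16F10 was compared with that of all sets in 7 settings. It was above in 7 of 7 for the interferon, myeloid, stem and progenitor, leukaemia, erythroid and platelet lists. It was so in 6 for the mitochondrial and Toll-like receptor lists and in 5 for the ribosome list. On the YUMM3.3 side the share was above that of all sets in 7 of 7 for the B cell, cholesterol and ultraviolet lists. Some lists described above for B16F10 also exceeded all sets on the YUMM3.3 side. These were erythroid in 6 settings, stem and progenitor in 5, mitochondrial in 5 and leukaemia in 4. DNA repair did so in 6 and T and NK cells in 5. Leaving out each replicate was not run, because the values analysed are per comparison. No paired analysis was possible because the labels carry no replicate numbers and the columns hold no single library.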
